A study of Mus musculus with 6 samples.

Results

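Il10 and Socs3, a secreted and an intracellular brake on inflammatory signalling, were followed in mouse macrophages given bacterial lipopolysaccharide (LPS). The selection held 1 transcript-level probe set for each gene, ENSMUST00000016673_at for Il10 and ENSMUST00000054002_at for Socs3, so that 2 of the 74007 rows of the deposited table are described. The rows were chosen by identifier and not by their values, though with earlier results of these data known, and both were present. The pairing of the 2 identifiers with gene names came with the selection. It was not checked further, because the gene table used here holds 0 Ensembl identifiers, and whether other rows measure the same genes was not checked either.

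The macrophages were grown from femoral bone marrow of female C57BL/6J mice aged 8 to 12 weeks on normal chow, in medium with the growth factor rhM-CSF (human M-CSF, made recombinantly, which drives macrophage growth) at 50 ng/mL. The cultures of 3 mice were each split between the groups, with 3 arrays without stimulus and 3 arrays with LPS at 10 ng/mL for 4 h from day 7. Both groups thus shared the strain, the rhM-CSF and the replating on day 6. RNA of each culture was hybridised to a mouse exon array, which carries probes along the exons of a transcript. Values are on a log2 scale, where a step of 1 is a 2-fold change in array signal. The labelled cell type was not checked against its markers, since no other row was paired with a gene name.

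Il10 encodes interleukin-10, a cytokine that binds a receptor on macrophages and other leukocytes and signals through the kinases JAK1 and TYK2 to the transcription factor STAT3. In macrophages interleukin-10 is known to restrain the production of inflammatory cytokines. Socs3 encodes suppressor of cytokine signalling 3, an SH2-domain protein that binds certain cytokine receptors, among them the gp130 chain of the interleukin-6 receptor, and inhibits the associated JAK kinases. Socs3 is itself a target gene of STAT3. LPS is sensed by TLR4, and both genes are known to be induced in macrophages downstream of it.

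For Socs3 the RefSeq table of promoter windows (GRCm38.p6) held 1 window, and its 250 bases before the annotated start are shown because they can be searched for the sequence to which STAT factors bind. They lie at chr11:117969367-117969616 on the minus strand. Capitals mark the match to TTCNNNGAA, a STAT-binding core that reads the same on both strands.
Socs3: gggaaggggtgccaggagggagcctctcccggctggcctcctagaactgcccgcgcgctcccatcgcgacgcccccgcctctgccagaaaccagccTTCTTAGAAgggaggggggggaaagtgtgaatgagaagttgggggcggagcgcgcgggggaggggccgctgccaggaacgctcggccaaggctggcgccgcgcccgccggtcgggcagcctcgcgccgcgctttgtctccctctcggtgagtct
The window held 1 match, TTCTTAGAA, at positions -154 to -146 counted from the start site. The same core occurred in 2306 of the 32851 promoter windows of that length in the table, or 7.02%. Of the 250 bases 71.6% were G or C, against a median of 52.4% over all windows. A match describes the letters only. Whether the deposited Socs3 transcript begins at this start site was not checked here.

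Il10, the secreted member of the pair, was low in all unstimulated arrays and high in all LPS arrays. Its log2 value was 7.01, 7.29 and 7.32 in unstimulated arrays 1, 2 and 3, and 10.79, 11.36 and 11.33 in LPS arrays 1, 2 and 3. The groups did not overlap, and the lowest LPS value stood 3.47 above the highest unstimulated value. How many of all transcripts also showed no overlap between the groups was not counted, so the separation cannot be called particular to Il10. Array 1 was the lowest of its group both without and with LPS. The mean rose from 7.21 ± 0.17 to 11.16 ± 0.32 (SD, n = 3 each). The rise of 3.95 ± 0.17 (SE) had a 95% interval of 3.55 to 4.36. This is a 15.5-fold higher array signal, with an interval of 11.7 to 20.5. Il10 passed the test across all transcripts (limma, Benjamini-Hochberg adjusted p = 1.91e-05). By the same test 8.75% of all transcripts were called higher with LPS, 32.0% were called in either direction and 3.00% were called at least 2-fold higher. The share called higher depends on scaling, with 6472 transcripts in the deposited values and 23708 after each array was centred on its median.

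Socs3, the intracellular inhibitor, was likewise low in every unstimulated array and high in every LPS array. It measured 7.03, 6.99 and 7.06 in unstimulated arrays 1, 2 and 3 on the log2 scale. In LPS arrays 1, 2 and 3 it measured 12.15, 11.98 and 11.65. The unstimulated arrays lay close together, the LPS arrays were more spread, and the groups were separated by 4.58 between the nearest arrays. Here too, the share of all transcripts without overlap was not counted, so the separation cannot be called particular to Socs3. LPS array 1, which was the lowest of its group for Il10, was the highest for Socs3. The mean rose from 7.03 ± 0.037 to 11.93 ± 0.26 (SD, n = 3 each). The rise of 4.90 ± 0.12 (SE) had a 95% interval of 4.60 to 5.20. The array signal was thus 29.8-fold higher, with an interval of 24.2 to 36.7 (limma, Benjamini-Hochberg adjusted p = 4.03e-06). For each gene alone, an exact two-sided permutation test gave p = 0.1, the smallest value that 3 arrays against 3 allow. Neither this test nor the limma intervals above used the pairing of cultures by mouse. With same-numbered arrays fitted as pairs, the 95% limma interval was 3.76 to 4.15 for Il10 and 4.60 to 5.20 for Socs3. A paired exact test, which cannot go below 0.25 with 3 pairs, was not run for either gene alone. In RNA from a whole culture, more cells that express a gene and more RNA per expressing cell cannot be told apart.

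**Figure D1:**
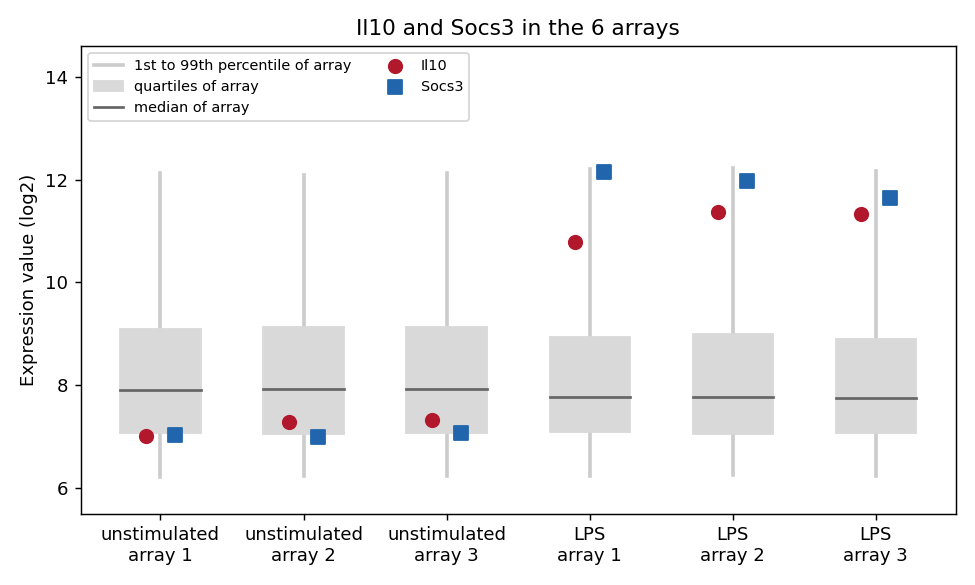
Log2 expression value of Il10 (circles) and Socs3 (squares) in each of the 6 arrays, over the median, quartiles and 1st to 99th percentile of all 74007 rows of that array. Both genes lie in or near the lowest part of the quartile box in the unstimulated arrays and far above it in the LPS arrays, where Il10 spans 10.79 to 11.36 and Socs3 11.65 to 12.15.

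Both genes moved from the dim part of the array to its bright part. Without LPS, between 22.7% and 33.8% of the rows of an array lay below Il10, and between 22.7% and 24.6% lay below Socs3. With LPS the shares were 94.3% to 96.9% for Il10 and 97.9% to 98.9% for Socs3. Each probe set has its own probes, so these places do not rank the 2 RNAs by abundance. No detection level was among the files used here, and an absent transcript cannot be told from a dim one at the unstimulated values. The size of the fold depends on the floor of the scale: when the 1st percentile of an array was taken off its signals, a setting added after the values were seen, the change was 30.7-fold for Il10 and 69.0-fold for Socs3.

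Within same-numbered pairs of arrays, each rise was of similar size. Il10 was higher with LPS by 3.78, 4.07 and 4.01 on the log2 scale in pairs 1, 2 and 3, which is 13.7-fold, 16.8-fold and 16.1-fold. Socs3 was higher by 5.12, 4.99 and 4.58, which is 34.9-fold, 31.8-fold and 24.0-fold. Pair 1 thus held the smallest rise of Il10 and the largest of Socs3, and pair 3 held the smallest of Socs3.

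**Figure D2:**
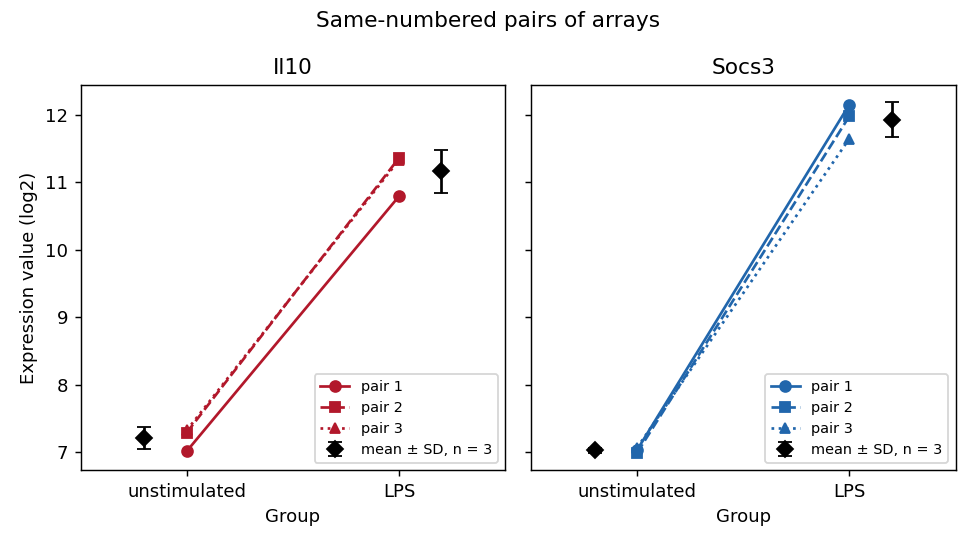
Log2 expression value of Il10 (left) and Socs3 (right) without and with LPS, with a line for each same-numbered pair of arrays and diamonds for the group mean ± SD (n = 3). The Il10 lines run nearly parallel, with pair 1 lowest at both ends, whereas the Socs3 lines start together near 7.03 and spread to between 11.65 and 12.15.

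The spread between arrays of a group differed between the genes and the groups. For Il10 the SD was 0.17 without LPS, larger than that of 84.7% of all rows, and 0.32 with LPS, larger than that of 96.8%. For Socs3 it was 0.037 without LPS, larger than that of 19.9% of rows, and 0.26 with LPS, larger than that of 92.6%. The median SD over all rows was 0.078 without and 0.094 with LPS. Over the 6472 rows called higher with LPS it was larger, at 0.095 without and 0.137 with LPS. The shares above were taken over rows of any level, and the spread was not compared among rows of like level. With 3 arrays a group these SDs are themselves imprecise, and their difference was not tested.

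Socs3 rose by more than Il10 on the array scale. The value of Il10 minus that of Socs3 was -0.017, 0.30 and 0.26 in unstimulated arrays 1, 2 and 3, and -1.36, -0.62 and -0.32 in LPS arrays 1, 2 and 3. All LPS arrays lay below all unstimulated arrays in this measure. The rise of Il10 minus that of Socs3 was -0.94, so that the fold of Socs3 was 1.93 times that of Il10, and it was negative in each pair, at -1.34, -0.92 and -0.57. The exact two-sided permutation test, which left out the pairing, gave p = 0.1, the smallest that this test can give with 3 arrays a group. Both genes were dim without LPS, though above the 1st percentile of those arrays (6.22 to 6.24), and their background is unknown. The ratio of the folds thus rests largely on the LPS signals of 2 different probe sets. With the 1st percentile taken off, the difference between the rises was -1.17. The 2 probe sets may differ in how strongly their signal follows RNA, which was not tested.

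Set against the whole array, both rises were among the larger ones. Of the 74007 transcripts, 84 rose by more than Il10, or 0.114%, and 25 rose by more than Socs3, or 0.0338%. The median difference was -0.022 over all transcripts and 0.71 over the 6472 called higher, and the largest rise was 6.20. For a comparison by level, transcripts were cut into equal shares of 25% by unstimulated mean. The share that held Il10 ran from 7.07 to 7.92, with Il10 in its lower part at 7.21. Of its 18502 rows, 7.13% were called higher and 34 rose by more than Il10. In the dimmest 25%, where Socs3 lay, 3.21% of 18501 rows were called higher and 12 rose by more than Socs3. That share ran from 5.92 to 7.07, with Socs3 near its upper end at 7.03, so most rows there were dimmer than Socs3. Neither gene shared its 6 values with another row.

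**Figure D3:**
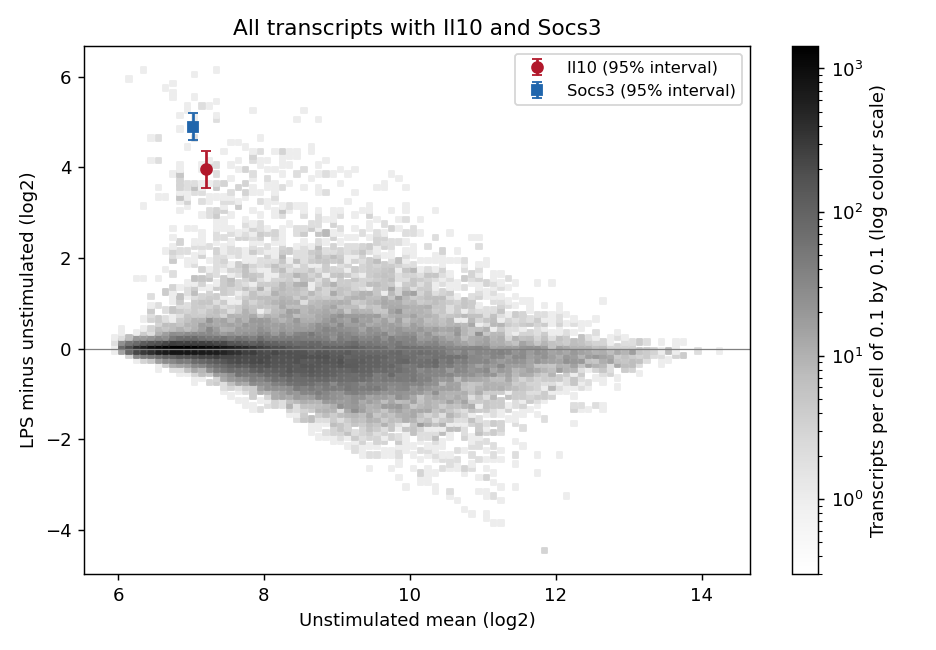
Difference between LPS and unstimulated means (log2, vertical axis) against the unstimulated mean (log2, horizontal axis) for all 74007 transcripts, as grey cells shaded by the number of transcripts on a log colour scale, with Il10 (circle) and Socs3 (square) and their 95% limma intervals. Il10 at 3.95 and Socs3 at 4.90 lie near the upper edge of the dim transcripts.

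For each gene, the transcript with the most similar pattern was sought by the root mean square distance between the 6 values, each row centred on its own mean. The nearest to Socs3 was ENSMUST00000018610_at at a distance of 0.068 over the 6 arrays. Its values were 7.10, 7.02 and 7.10 without LPS and 12.31, 12.15 and 11.85 with LPS, with the same order of LPS arrays as Socs3. The nearest to Il10 was ENSMUST00000153546_at at 0.12, with values of 7.10, 7.48 and 7.35 without LPS and 10.67, 11.59 and 11.33 with LPS. Array 1 was the lowest of its group in that transcript too, in both groups. Within a distance of 0.2 lay 11 rows for Il10 and 9 for Socs3, while Il10 and Socs3 were 0.57 apart. Neither nearest row was paired with a gene name, and most of each likeness comes from the step between the groups. Each nearest row was picked for its likeness over these same 6 values. A shared order of arrays is thus partly built into the choice and is no independent support.

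The whole table bears on these values in a few ways. Pearson's r across transcripts, which are not independent replicates, was 0.986 to 0.993 between arrays of a group and 0.910 to 0.926 between arrays of different groups. The median of the LPS arrays differed from that of the unstimulated arrays by -0.15 on the log2 scale. Relative to the array median, Il10 rose by 4.10 and Socs3 by 5.05. Leaving out any 1 array gave differences of 3.85 to 4.14 for Il10 and 4.79 to 5.04 for Socs3, all of them called by limma.

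**Figure D4:**
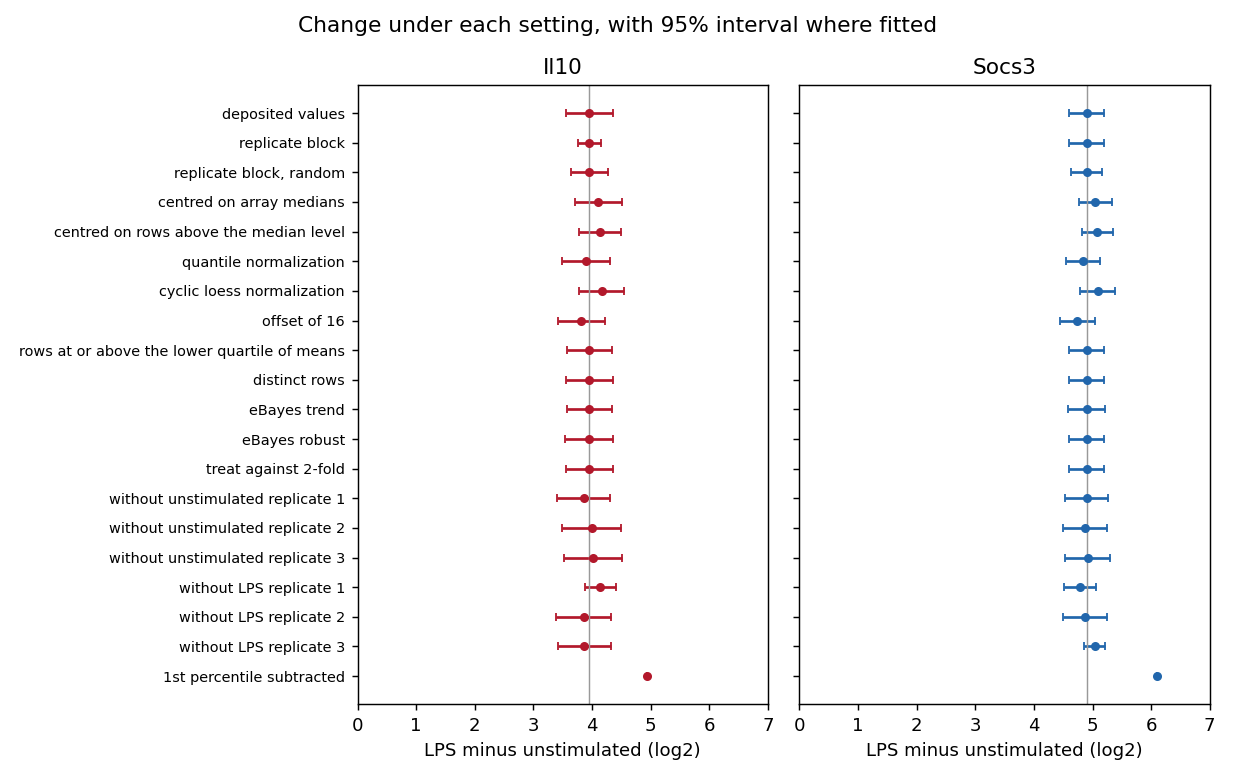
Difference between LPS and unstimulated arrays (log2, horizontal axis) for Il10 (left) and Socs3 (right) under each processing setting, with 95% intervals where a limma fit gave one and a grey line at the value from the deposited data. Intervals lie well above 0 in every fit shown, and the values with the 1st percentile subtracted, 4.94 and 6.11, stand apart from the others.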

How the data were processed

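The authors deposited log2 expression values, with a single value for each transcript-level probe set on each array, as the series text and labels state. Per the submitters' processing notes the tools were PLIER, a method for summarising probes, and Affymetrix Power Tools. The sources used here do not give versions, the probe-set definition, the genome build or any normalization between arrays.

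Arrays were grouped by title. All 74007 rows were fitted with limma 3.58.1 in R 4.3.3 (lmFit, eBayes, two-sided, Benjamini-Hochberg adjustment over all rows, threshold 0.05). Differences are LPS minus unstimulated, on the values as deposited, without a filter. Across rows, the deviation from the group mean correlated between arrays of the same number at 0.50, 0.30 and 0.12, and the series text says each mouse gave a culture to both groups, so the numbers were taken as pairs. Unstimulated array 2 and LPS array 3, of different number, correlated at 0.21, above the lowest same-numbered value. The block is an alternative. The code was checked on simulated data. The 2 genes, the tests and the alternatives were chosen with earlier results of these data known. Named transcripts are the 2 genes and, for each, the row nearest in pattern. Other genes of the pathway were not analysed here, since no other row is paired with a symbol. The number of arrays limits the precision. Figures were drawn with matplotlib 3.10.9.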

Additional observations from a re-analysis of the deposited data

How the results depend on the processing

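Both rises kept their sign and their limma call under all 18 alternative limma fits, with adjusted p from 7.90e-07 to 0.00029 for Il10 and from 1.09e-07 to 0.00012 for Socs3. Fits with the replicate block, fewer rows, other eBayes settings or a test against 2-fold cannot move the difference itself. In those fits only the call was open. With the replicate block, the pairing by array number, Il10 rose by 3.95 ± 0.074 (SE) and Socs3 by 4.90 ± 0.12. Il10 minus Socs3 is -0.94 there by construction, since complete pairs keep the group difference (exact sign-flip p = 0.25, the smallest for 3 pairs). The block changed no call of either gene. The exact permutation test, on differences of 3.95 and 4.90, cannot pass 0.05 with 3 arrays a group. Subtraction of the 1st percentile, added after the data were seen, gave 4.94 for Il10 and 6.11 for Socs3, since it lowers the unstimulated signal most. Leaving out 1 array moved the difference between the rises to between -1.17 and -0.65, the latter without LPS array 1. Called transcripts went from 23667 to 35595 with median centring, 35998 with centring on rows above the median level and 1587 with limma's treat, which tests against 2-fold. Higher calls went from 6472 to 23708, 25171 and 1072 under these settings, to 9768 with quantile and to 10499 with cyclic loess normalization. Calls at least 2-fold higher went from 2222 to 1072 with treat. Leaving out 1 array gave 18380 to 22009 calls and 5234 to 6505 higher calls. The background of the unstimulated values is unknown, which limits every fold.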
